A study of Homo sapiens with 3 samples.

Results

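The genes described here are 33 genes of ribosome biogenesis and MYC, 34 genes of 58735 in the deposited tables. They were chosen by function (nucleolar proteins, the small-subunit processome and MYC), as were the other gene lists below, but with earlier results of these data known. The members were found by matching each Ensembl identifier to its symbol in GENCODE release 29, and all 34 matched. The cells carry the label KG1a, a line derived from acute myeloid leukaemia, and were infected with lentivirus carrying a hairpin against TRAF7 (2 libraries, labelled as genotype TRAF7 knockdown and called knockdown 1 and knockdown 2) or a control hairpin (1 library, labelled as wild type). TRAF7 is an E3 ubiquitin ligase, and the series asks how its depletion changes the transcriptome of these leukaemia cells. All 3 libraries carry the same batch label, and nothing in the labels tells if the knockdown libraries share a hairpin or a culture, so any p-value here reflects only how these 3 samples vary, which may be technical.

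The libraries held 16221721, 16254461 and 16014485 assigned reads in knockdown 1, knockdown 2 and control. TRAF7 itself had 15.6 and 18.3 FPKM in knockdown 1 and 2, against 46.5 FPKM in the control. FPKM here are read counts scaled for exon length and a library factor, 0.963 and 1.01 in knockdown 1 and 2 and 1.04 in the control. That factor does not follow the read totals, so ratios of FPKM differ from ratios of read shares. Even TRAF7 did not pass the limma test over all genes used below, though it did by limma-voom. The check of the cell label was mixed. CD34, the surface antigen that KG1a cells are best known for, had 1 and 10 reads in knockdown 1 and 2 and 0 reads in the control, where the floor of 3 reads applies. The leukocyte genes SPN and PTPRC were present at 32.9 to 46.2 FPKM and 5.5995 to 9.54 FPKM. FGFR1, the remaining gene on the KG1a list, had 3.54 and 3.17 FPKM in knockdown 1 and 2 and 2.73 FPKM in the control. Of 5 stromal and epithelial markers, EPCAM and KRT19 had 19.96 to 23.5 FPKM and 21.2 to 36.2 FPKM and the other 3 stayed below 1 FPKM; summed over the list, the level was 45.1 and 54.3 FPKM in the knockdown libraries and 56.9 FPKM in the control. Lymphoid markers (3 genes) summed to 0.972, 0.993 and 0.698 FPKM and myeloid markers (3 genes, with ELANE at 0 in all libraries) to 2.66, 5.49 and 5.37 FPKM in the same order. Erythroid markers (4 genes) summed to 99.6 and 90.7 FPKM in knockdown 1 and 2 against 37.99 FPKM in the control, most of it from HBA1. The part of these markers in the results below was not tested, and fewer cells of a type and less RNA per cell cannot be told apart in bulk RNA.

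Ribosomes are assembled in the nucleolus, where RNA polymerase I transcribes ribosomal DNA and the precursor is folded, cut and chemically modified by a large set of assembly factors and small nucleolar ribonucleoproteins (snoRNPs). Box C/D snoRNPs guide methylation of ribosomal RNA and box H/ACA snoRNPs guide pseudouridylation; the small-subunit processome builds the precursor of the 40S subunit, and a separate set of factors builds the 60S subunit. MYC, a transcription factor that binds the E-box sequence CACGTG as a dimer with MAX, is known to activate many of these genes, and both MYC and nucleophosmin (NPM1) are long studied in acute myeloid leukaemia.

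RefSeq promoter windows (GRCh38.p14, 250 bases before to 50 bases after an annotated start) were at hand for 27 of the 34 members, as 34 windows, and were searched for the E-box because it is the sequence that links MYC to this group. CACGTG, which reads the same on both strands, was found in 16 of the 27 members (59.3%), against 2396 of all 27305 genes with a window (8.77%), 1101 of 8236 genes tested below (13.4%) and 500 of 3455 genes averaging 10 FPKM or more (14.5%). Counted by window, 17 of 34 member windows held it, against 7.26% of all windows. The variant CACGCG, searched on both strands, was in 22.2% of members against 13.5% of all genes and 23.5% of genes tested. CATGTG, likewise on both strands, was in 0 of 27 members against 13.4% of all genes and 9.11% of genes tested. By its letters CACGTG cannot overlap a match of either variant. Of the 18 canonical E-boxes in member windows, 16 began within 50 bases of the annotated start (88.9%), against 36.9% of the 2821 in all windows. A match describes these letters and not a bound site.

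The 6 windows below are those of EBNA1BP2 and MRTO4, the members with an E-box that had the largest fitted differences between the groups, of FBL and NOP10, which hold 1 and 2 E-boxes, and of NHP2 and NOB1, which had the highest and the lowest fitted difference among members whose windows lack an E-box. Capitals mark CACGTG, and each sequence runs 5′ to 3′ on the strand of its gene.
EBNA1BP2 chr1:43172241-43172540, minus strand: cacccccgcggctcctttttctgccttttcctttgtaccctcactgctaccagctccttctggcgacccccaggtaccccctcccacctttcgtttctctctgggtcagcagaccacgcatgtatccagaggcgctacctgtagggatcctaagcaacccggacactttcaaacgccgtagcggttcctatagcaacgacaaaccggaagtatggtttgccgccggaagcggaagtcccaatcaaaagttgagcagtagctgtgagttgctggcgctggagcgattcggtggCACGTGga
MRTO4 chr1:19251555-19251854, plus strand: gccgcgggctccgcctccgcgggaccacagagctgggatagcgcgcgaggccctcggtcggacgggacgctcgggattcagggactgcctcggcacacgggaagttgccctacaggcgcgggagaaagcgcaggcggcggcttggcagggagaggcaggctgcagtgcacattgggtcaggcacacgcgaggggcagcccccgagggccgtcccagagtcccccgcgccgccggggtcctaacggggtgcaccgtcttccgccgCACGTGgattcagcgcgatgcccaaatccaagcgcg
FBL chr19:39846330-39846629, minus strand: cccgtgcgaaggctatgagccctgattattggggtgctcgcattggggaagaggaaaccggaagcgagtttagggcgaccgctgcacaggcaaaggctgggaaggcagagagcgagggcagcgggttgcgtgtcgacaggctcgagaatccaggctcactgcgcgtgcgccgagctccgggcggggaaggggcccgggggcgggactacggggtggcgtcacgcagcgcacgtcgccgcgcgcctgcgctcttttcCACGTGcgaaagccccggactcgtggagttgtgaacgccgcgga
NOP10 chr15:34343087-34343386, minus strand: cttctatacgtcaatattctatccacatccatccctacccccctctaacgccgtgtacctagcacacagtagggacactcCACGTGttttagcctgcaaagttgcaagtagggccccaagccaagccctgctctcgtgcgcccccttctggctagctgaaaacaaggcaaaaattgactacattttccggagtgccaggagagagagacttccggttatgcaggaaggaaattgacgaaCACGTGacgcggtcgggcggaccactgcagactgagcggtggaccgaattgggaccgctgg
NHP2 chr5:178153836-178154135, minus strand: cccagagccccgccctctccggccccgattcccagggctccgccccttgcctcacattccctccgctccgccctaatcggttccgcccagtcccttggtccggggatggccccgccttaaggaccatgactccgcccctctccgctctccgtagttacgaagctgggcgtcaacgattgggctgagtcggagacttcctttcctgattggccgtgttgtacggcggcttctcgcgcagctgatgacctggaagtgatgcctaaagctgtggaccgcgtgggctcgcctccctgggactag
NOB1 chr16:69754877-69755176, minus strand: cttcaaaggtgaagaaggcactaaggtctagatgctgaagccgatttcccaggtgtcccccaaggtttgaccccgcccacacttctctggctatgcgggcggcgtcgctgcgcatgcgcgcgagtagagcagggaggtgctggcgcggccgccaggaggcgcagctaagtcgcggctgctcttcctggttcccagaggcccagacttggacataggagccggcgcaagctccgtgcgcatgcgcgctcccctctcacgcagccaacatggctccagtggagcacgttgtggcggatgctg
The E-box of FBL begins 6 bases after the annotated start. That of MRTO4 begins 14 bases after it and that of EBNA1BP2 42 bases after it, whereas NOP10 has E-boxes 170 and 11 bases before the start. EBNA1BP2 has a further annotated start, whose window holds another E-box 237 bases before it.

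**Figure D1:**
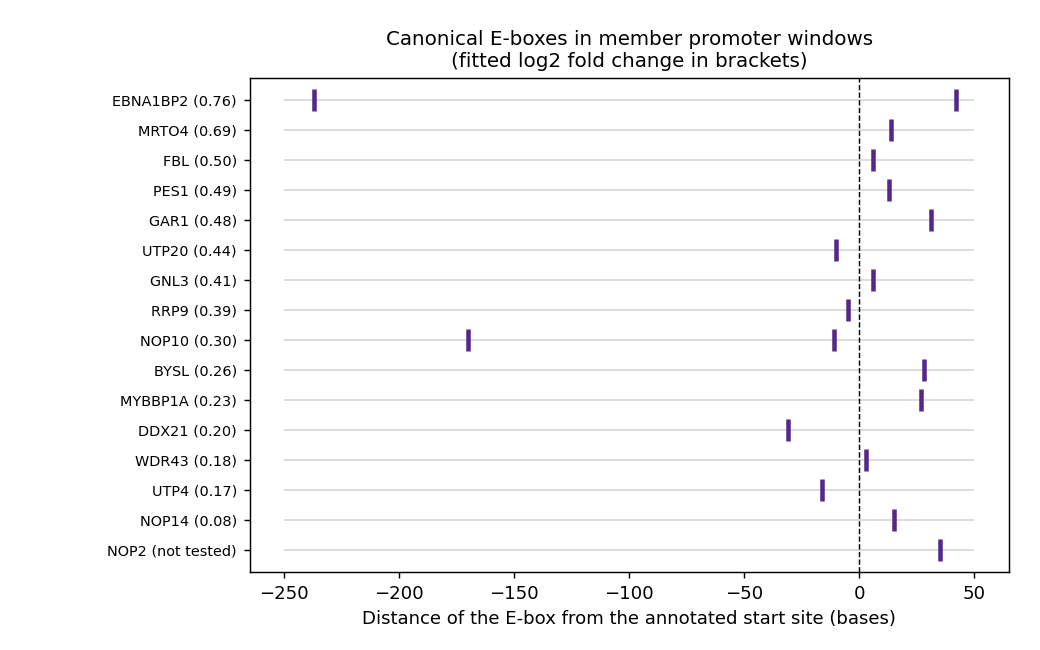
Position of each canonical E-box (purple tick) in the RefSeq promoter windows of the 16 members that have one; the x axis gives bases from the annotated start, and members run from the highest fitted log2 fold change (top, in brackets) to NOP2, which was below the filter. Most E-boxes lie within 50 bases of the start, in members near the top and near the bottom alike.

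Most members were higher in both knockdown libraries than in the control, by more in knockdown 1 than in knockdown 2, and none passed the test over all genes. Of the 34 members, 33 had a mean of at least 1 FPKM and were tested; NOP2 did not. Among the 33, 27 were higher in both knockdown libraries (81.8%), where the same held for 42.5% of all 12640 genes tested; 1 member, NOB1, was lower in both, against 30.8% of all genes, and 5 were split. The median difference on the log2(FPKM + 1) scale was 0.55 in knockdown 1 and 0.19 in knockdown 2, against 0.06 and 0.03 for all genes tested. Both comparisons share the 1 control library. Under quantile normalization 19 members were higher in both and 3 lower, and the fitted direction turned for DDX21, DKC1, UTP4, NOP14 and PPAN. By limma with intensity trend, 0 members and 0 of all genes (0%) had a Benjamini-Hochberg adjusted p below 0.05; at an unadjusted p below 0.05, 7 members were higher (all genes, 5.46%) and 0 lower (3.73%). By limma-voom run on the recovered read counts, EBNA1BP2 alone of the members passed, as higher (all genes, 0.348%), and 0 passed as lower (0.775%).

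Level goes with the difference across the transcriptome, and the members are well expressed. Genes averaging 10 FPKM or more numbered 4538, of which 61.1% were higher in both knockdown libraries, and their median differences were 0.20 in knockdown 1 and 0.11 in knockdown 2. Of the 31 members at that level, 26 were higher in both (83.9%). Of the 4538 genes, 479 were higher and 78 lower at an unadjusted limma p below 0.05, and 42 rose and 20 fell by limma-voom. Reads on noncoding classes were fewer in the knockdown libraries: sense intronic genes had 448 and 476 RPM (reads scaled to all assigned reads) in knockdown 1 and 2 against 553 RPM in the control, and long intergenic RNAs 6999 and 7832 RPM against 8895 RPM. The part of either in the members' differences was not tested. Together the 34 members took 0.935% and 0.803% of assigned reads in knockdown 1 and 2 and 0.714% in the control, with a median level of 49.2 and 37.6 FPKM against 31.3 FPKM.

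**Figure D2:**
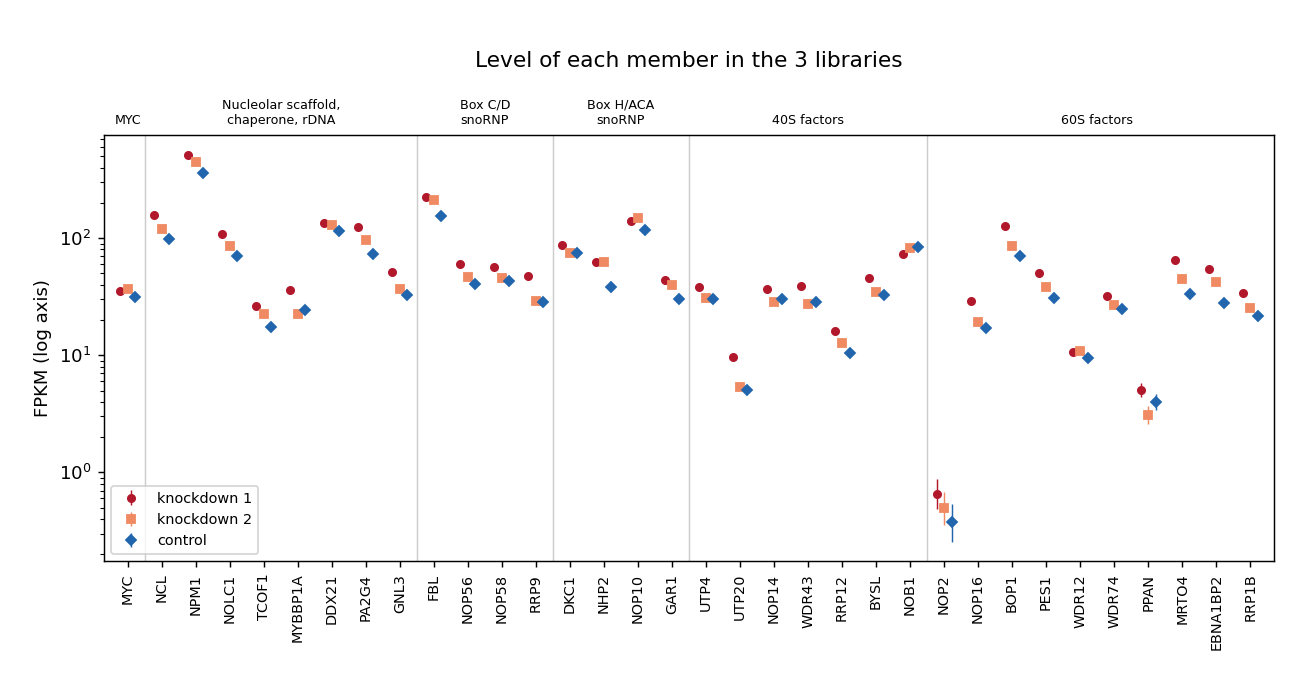
FPKM of each member on a log axis in knockdown 1 (circles), knockdown 2 (squares) and control (diamonds), grouped by role; bars give the exact 95% Poisson interval for the reads behind each value, smaller than the symbol for most genes. NPM1 is the most abundant member at 363 to 512 FPKM, and NOP2 the least at 0.379 to 0.658 FPKM.

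MYC, on chromosome 8 at positions 127735434 to 127741434 (plus strand, GRCh38), was at a higher FPKM in both knockdown libraries, by an amount that depended on the scaling. It had 35.6 FPKM in knockdown 1 (exact 95% Poisson interval 33.9 to 37.3, 1661 reads), 36.5 FPKM in knockdown 2 (34.8 to 38.2, 1780 reads) and 31.5 FPKM in the control (29.95 to 33.1, 1595 reads). The knockdown libraries lay within each other's intervals and both above the control's, at 113% and 116% of its level. The limma test has 1 residual degree of freedom per gene and also draws on the variance of other genes. The fitted log2 fold change was 0.19 ± 0.17 (SE, limma adjusted p = 0.756), which this test did not separate from 0. It was 0.01 under quantile normalization (adjusted p = 0.984) and 0.09 with scaling to all assigned reads (adjusted p = 0.840), with limma in both; over all 11 alternatives of the fit it ranged from 0.01 to 0.19, and its limma or limma-voom adjusted p from 0.487 to 0.984. MYC was 1 of only 3 members, with NOP10 and WDR12, whose level in knockdown 2 exceeded that in knockdown 1 while both exceeded the control. These intervals cover counting error only.

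Among the nucleolar scaffold proteins, chaperones and ribosomal DNA factors, 7 of 8 were higher in both knockdown libraries and MYBBP1A was split, with median differences of 0.59 in knockdown 1 and 0.28 in knockdown 2. NPM1, a histone and ribosome chaperone on chromosome 5 (171387116 to 171411137, plus strand), had 512 and 451 FPKM in knockdown 1 and 2 against 363 FPKM in the control. Its fitted log2 fold change was 0.40 ± 0.12 (SE; limma adjusted p = 0.475). The annotation holds 45 NPM1 pseudogenes, which took 786, 742 and 543 reads in knockdown 1, knockdown 2 and control, 2.58%, 2.64% and 2.31% of the reads of NPM1 itself, so reads may be split among the copies. PA2G4, also known as EBP1, a protein that associates with ribosomes, had 124 and 97.3 FPKM in knockdown 1 and 2 and 73.8 FPKM in the control (fitted log2 fold change 0.57 ± 0.19, SE; limma adjusted p = 0.495). It has 5 annotated pseudogenes, with reads equal to 1.97%, 1.81% and 1.78% of its own in knockdown 1, knockdown 2 and control.

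Nucleolin (NCL), an abundant nucleolar protein that binds the ribosomal RNA precursor, had 157 FPKM in knockdown 1 and 119.9 FPKM in knockdown 2, against 98.6 FPKM in the control. TCOF1, or treacle, which supports ribosomal DNA transcription, had 26.3 and 22.5 FPKM against 17.5 FPKM, and its partner in nucleolar organisation NOLC1 had 109 and 85.7 FPKM against 70.4 FPKM. All 3 followed 1 order, knockdown 1 above knockdown 2 above control. GNL3 (nucleostemin, a nucleolar GTPase) kept that order at 51.7 and 36.9 FPKM against 32.5 FPKM, while the RNA helicase gene DDX21 had the smallest fitted difference of the group, at 134 and 129 FPKM against 115 FPKM, and a negative one under quantile normalization. MYBBP1A, a nucleolar protein that binds MYB, had 36.3 FPKM in knockdown 1 but 22.7 FPKM in knockdown 2, on either side of the 24.4 FPKM of the control.

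The 4 box C/D proteins were all higher in both knockdown libraries, FBL evenly and the rest mainly in knockdown 1. FBL (fibrillarin, chromosome 19, 39834458 to 39846414, minus strand) is the methyltransferase of these particles; it had 225 FPKM in knockdown 1, 212 FPKM in knockdown 2 and 154 FPKM in the control. Its fitted log2 fold change was 0.50 ± 0.13 (SE; limma adjusted p = 0.443), and the knockdown libraries differed by 0.08 on the log2 scale. The core proteins NOP56 and NOP58 had 60.3 and 46.2 FPKM against 40.3 FPKM, and 57.0 and 45.4 FPKM against 43.2 FPKM, in knockdown 1 and 2 against the control. RRP9, the protein specific to the U3 snoRNP of the processome, had 47.8 FPKM in knockdown 1, while its 29.3 FPKM in knockdown 2 lay inside the Poisson interval of the control (26.3 to 30.4 FPKM around 28.3).

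The 4 core proteins of the box H/ACA particle, which form 1 complex, did not move by the same amount. NHP2 (chromosome 5, 178149460 to 178153967, minus strand) had 62.5 FPKM in both knockdown libraries, from 1470 and 1535 reads, against 37.9 FPKM in the control, from 967 reads. That is 165% of the control in each, the largest difference of any member in knockdown 2, and the fitted log2 fold change was 0.71 ± 0.16 (SE; limma adjusted p = 0.403; limma-voom adjusted p = 0.0662). GAR1 had 44.3 and 39.9 FPKM in knockdown 1 and 2 against 29.9 FPKM in the control (0.48 ± 0.18, SE; limma adjusted p = 0.524). NOP10, the smallest gene of the group with 554 exon bases, had 141 and 149 FPKM against 117 FPKM. The pseudouridine synthase DKC1, the catalytic subunit, had 87.9 FPKM in knockdown 1 and 74.4 FPKM in knockdown 2, beside 74.6 FPKM in the control. Of the exon bases of NHP2, 27.4% overlap RMND5B on the opposite strand, and the sources used here do not state whether counting used strand; RMND5B had 8.21 and 8.85 FPKM in the knockdown libraries and 9.01 FPKM in the control.

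The small-subunit members had the lowest median fitted difference of the roles (0.18), with 4 of 7 higher in both knockdown libraries and median differences of 0.42 in knockdown 1 and 0.03 in knockdown 2. UTP20, a large scaffold of the processome, had 9.63 FPKM in knockdown 1 (1502 reads) against 5.37 FPKM in knockdown 2 (876 reads) and 5.08 FPKM in the control (860 reads), so that 1 library carried the difference. RRP12, needed for export of the subunit precursor, had 16.0 and 12.6 FPKM in knockdown 1 and 2 and 10.5 FPKM in the control. It was the only one of the 7 whose Poisson intervals in both knockdown libraries lay above that of the control. BYSL (bystin), which acts late in 40S maturation, had 45.3 and 34.6 FPKM against 32.9 FPKM, and UTP4, a member of the processome subcomplex that binds early, 38.1 and 31.1 FPKM against 30.4 FPKM, with a negative fitted difference under quantile normalization. WDR43, of the same subcomplex, and the processome factor NOP14 were split: WDR43 had 38.7 and 27.5 FPKM against 28.8 FPKM, and NOP14 had 36.6 and 28.6 FPKM against 30.5 FPKM. NOB1, the endonuclease that makes the final cut of the small-subunit RNA, had 73.0 and 83.1 FPKM in knockdown 1 and 2 and 83.9 FPKM in the control. It was the only member below the control in both libraries (fitted log2 fold change −0.11 ± 0.17, SE; limma adjusted p = 0.873), and its knockdown 2 value lay inside the control's interval of 81.0 to 87.0 FPKM.

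The 60S members held the largest differences in knockdown 1, with 8 of 9 tested higher in both knockdown libraries and medians of 0.68 in knockdown 1 and 0.21 in knockdown 2. EBNA1BP2 (chromosome 1, 43164175 to 43270936, minus strand), the human relative of the yeast assembly factor Ebp2, had 54.4 FPKM in knockdown 1 (interval 52.5 to 56.4, 3014 reads), 41.9 FPKM in knockdown 2 (40.2 to 43.6, 2426 reads) and 27.8 FPKM in the control (26.5 to 29.2, 1674 reads). The 3 intervals did not overlap, and the knockdown libraries stood at 195% and 150% of the control. It had the highest fitted log2 fold change of the members, 0.76 ± 0.21 (SE; limma adjusted p = 0.447), and rose by limma-voom (adjusted p = 0.0481). Of its exon bases 18.8% overlap CFAP57 on the opposite strand, which is listed at 0 in all 3 libraries. MRTO4, which occupies the place of the stalk protein on the immature subunit, had 64.8 and 45.0 FPKM in knockdown 1 and 2 against 33.1 FPKM in the control (0.69 ± 0.25, SE; limma adjusted p = 0.523; limma-voom adjusted p = 0.0925).

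The PeBoW complex of BOP1, PES1 and WDR12, required for processing of 60S precursor RNA, was uneven among its subunits. BOP1 had 127 and 86.3 FPKM in knockdown 1 and 2 against 70.6 FPKM in the control (fitted log2 fold change 0.56 ± 0.25, SE; limma adjusted p = 0.560). PES1 had 50.5 and 38.3 FPKM against 31.1 FPKM (0.49 ± 0.22, SE; limma adjusted p = 0.565), and its 2 pseudogenes held 159, 172 and 224 reads, the reverse order to the gene's own 3582, 2837 and 2392. WDR12, the third subunit, had 10.6 and 10.96 FPKM against 9.54 FPKM. RRP1B had 34.03 and 25.2 FPKM against 21.6 FPKM, NOP16 29.005 and 19.2 FPKM against 17.3 FPKM, and WDR74 32.3 and 26.8 FPKM against 24.9 FPKM; each kept the order knockdown 1, knockdown 2, control.

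For NOP2 and PPAN the level itself is uncertain. NOP2, an RNA methyltransferase of the large subunit, rested on 48, 38 and 30 reads in knockdown 1, knockdown 2 and control (0.658, 0.499 and 0.379 FPKM), and 54.4% of its exon bases also belong to an overlapping gene, AC006064.6, on the same strand. PPAN had 5.05 and 3.12 FPKM in knockdown 1 and 2 against 4.01 FPKM in the control, and 59.8% of its exon bases are shared on the same strand, most of them with the read-through gene PPAN-P2RY11. Both overlapping genes are listed at 0 in all 3 libraries. Treatment of reads in shared exons by the authors' counting was not given in the sources used here. Elsewhere 25 snoRNA genes lie inside 7 members (NCL, GNL3, NOP56, NOP58, DKC1, WDR43 and PPAN), and they held 109, 81 and 100 reads in total, too few to compare.

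**Figure D3:**
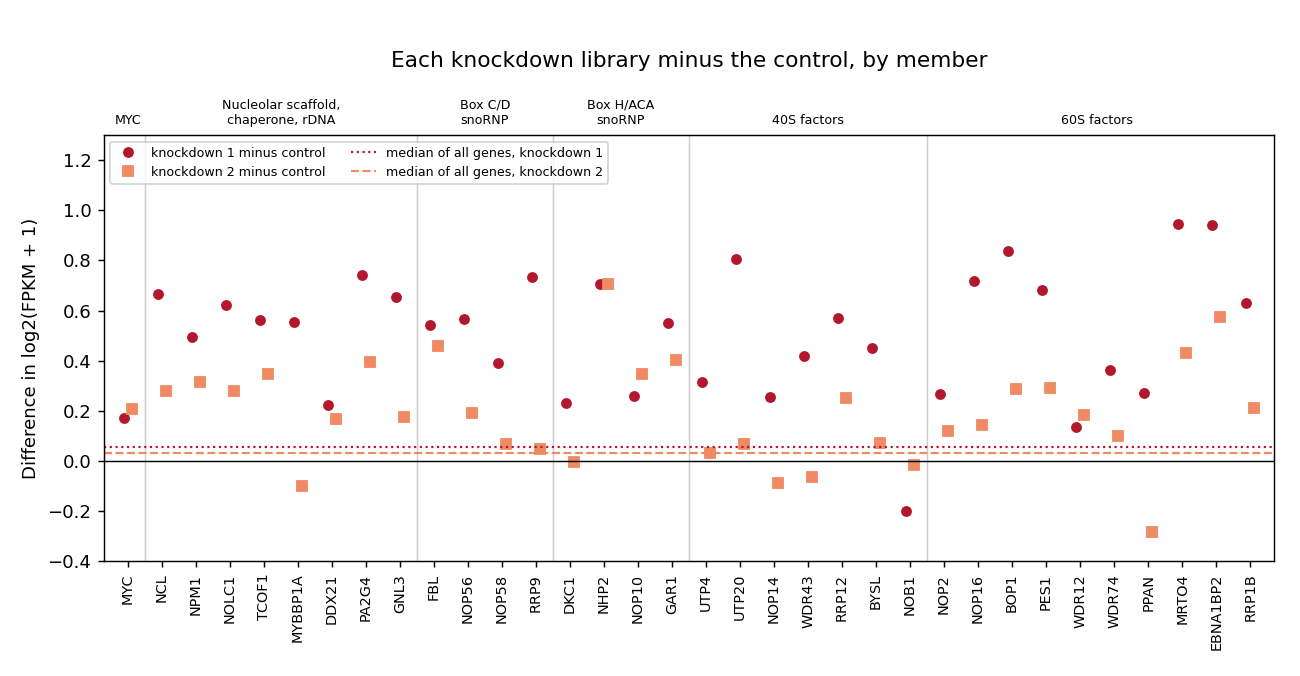
Difference in log2(FPKM + 1) of knockdown 1 (circles) and knockdown 2 (squares) from the control for each of the 34 members, grouped by role; the dotted and dashed lines are the medians of all genes tested, 0.06 and 0.03. Circles lie above squares for most members, NHP2 is level between the libraries, and NOB1 alone is below 0 in both.

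The knockdown libraries differed from each other for most members. In 29 of 33 members knockdown 1 was above knockdown 2, against 54.7% of all genes tested, and in 19 the excess was at least 25% on the FPKM + 1 scale, against 11.5% of all genes; 0 members differed by that ratio the other way, against 11.8%. The order knockdown 1, knockdown 2, control held in 24 members, against 29% of all genes. Poisson intervals of knockdown 1 lay above those of knockdown 2 in 27 members (all genes, 20.5%). Those of both knockdown libraries lay above the control's in 20 (all genes, 16%). Such intervals are narrower, relative to the level, in genes with more reads, and the members are well expressed. The part of level in these counts was not tested. A level at least 25% above the control on that scale was seen in 24 members in knockdown 1 (all genes, 20.4%) and in 8 in knockdown 2 (12.5%). Only 7 members reached it in both: FBL, NHP2, GAR1, PA2G4, MRTO4, EBNA1BP2 and TCOF1. That is 21.2% of those tested against 8.05% of all genes, and 0 members were lower by the same ratio in both (all genes, 6.42%). Among the 4538 genes averaging 10 FPKM or more, 625 reached it in both and 109 were lower by that ratio in both. At 1.5-fold the counts were 13 in knockdown 1 (6%), 1 in knockdown 2 (2.83%) and 1 in both (1.49%). The median excess of knockdown 1 over knockdown 2 was 0.34 for the members, 0.03 for all genes and 0.07 for genes averaging 10 FPKM or more. By role, MYC apart, this excess was lowest in the box H/ACA proteins at 0.07 and highest in the 60S members at 0.42. TRAF7 itself stood at 33.6% and 39.4% of the control in knockdown 1 and 2.

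**Figure D4:**
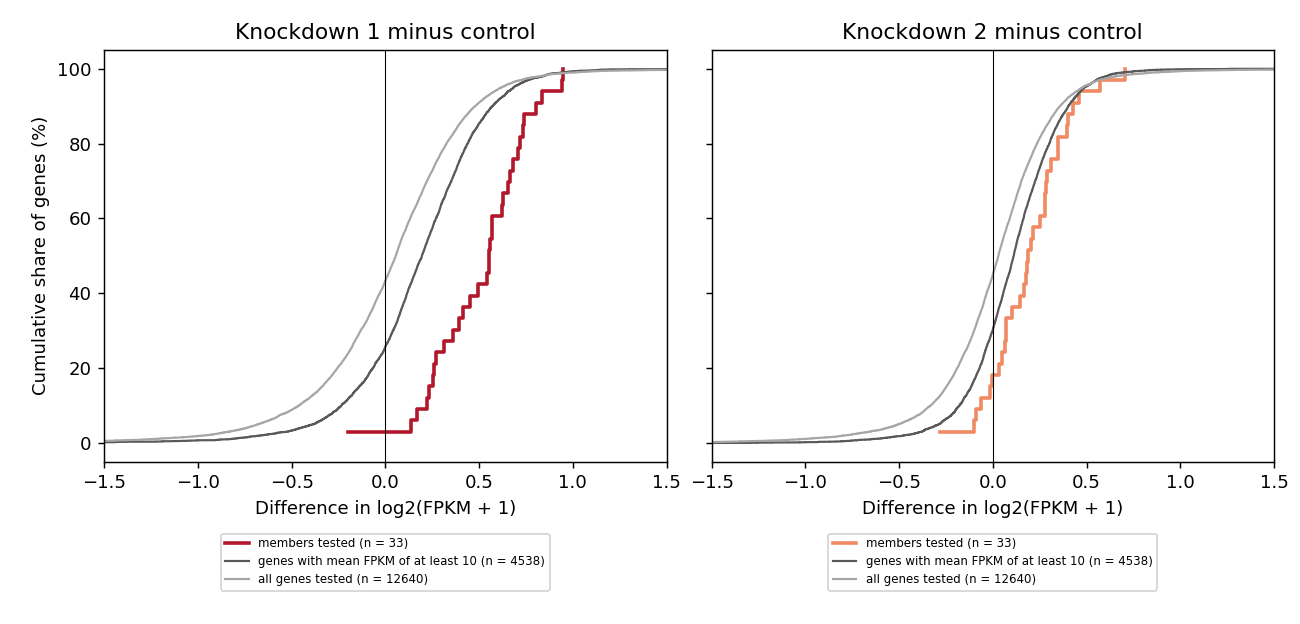
Cumulative share of genes (y axis, percent) by difference in log2(FPKM + 1) from the control, for knockdown 1 (left) and knockdown 2 (right); coloured steps are the 33 members tested, dark grey the 4538 genes averaging 10 FPKM or more and light grey all 12640 genes tested. The member curve lies to the right of both in knockdown 1 (median 0.55) and closer to the dark grey curve in knockdown 2 (0.19 against 0.11).

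Of 47 other small-subunit factors tested, 36 were higher in both knockdown libraries (76.6%) and 2 lower, with median differences of 0.41 in knockdown 1 and 0.15 in knockdown 2. Of 51 other 60S factors, 38 were higher (74.5%) and 3 lower (medians 0.40 and 0.12). Among all genes tested 42.5% were higher in both and 30.8% lower, and among those averaging 10 FPKM or more 61.1% were higher. By limma 0 passed over all genes in either list, and 0 by limma-voom. Their lowest p-values belonged to EMG1, a ribosomal RNA methyltransferase, at 10.2 and 8.51 FPKM in knockdown 1 and 2 against 5.76 FPKM in the control, NOC4L at 44.6 and 38.3 FPKM against 27.2 FPKM and TBL3 at 30.4 and 22.6 FPKM against 16.4 FPKM, and among the 60S factors to LAS1L, NOC2L and NOC3L. NOC2L had 86.5 and 66.1 FPKM against 50.2 FPKM. DDX47 was below the filter.

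All but 1 of 12 other snoRNP and assembly factors were higher in both knockdown libraries (11 or 91.7%, with 0 lower and medians of 0.36 and 0.25). Among them was RUVBL2, an ATPase that helps assemble snoRNPs, at 130.6 and 130.3 FPKM in knockdown 1 and 2 against 91.1 FPKM in the control. Of 17 genes of the RNA exosome and ribosomal RNA trimming, 14 were higher (82.4%) and 0 lower (medians 0.40 and 0.19). EXOSC7 had 16.7 and 15.01 FPKM against 9.96 FPKM and EXOSC9 20.1 and 19.5 FPKM against 13.1 FPKM. RNA polymerase I and its factors gave 7 higher of 15 (46.7%), close to the 42.5% of all genes, and 0 lower, against 30.8%. Their medians were 0.21 and 0.03, against 0.06 and 0.03 for all genes. The subunit gene POLR1E had 47.3 and 43.0 FPKM against 34.2 FPKM. In these 3 lists 0 genes passed over all genes by limma or limma-voom.

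**Figure D5:**
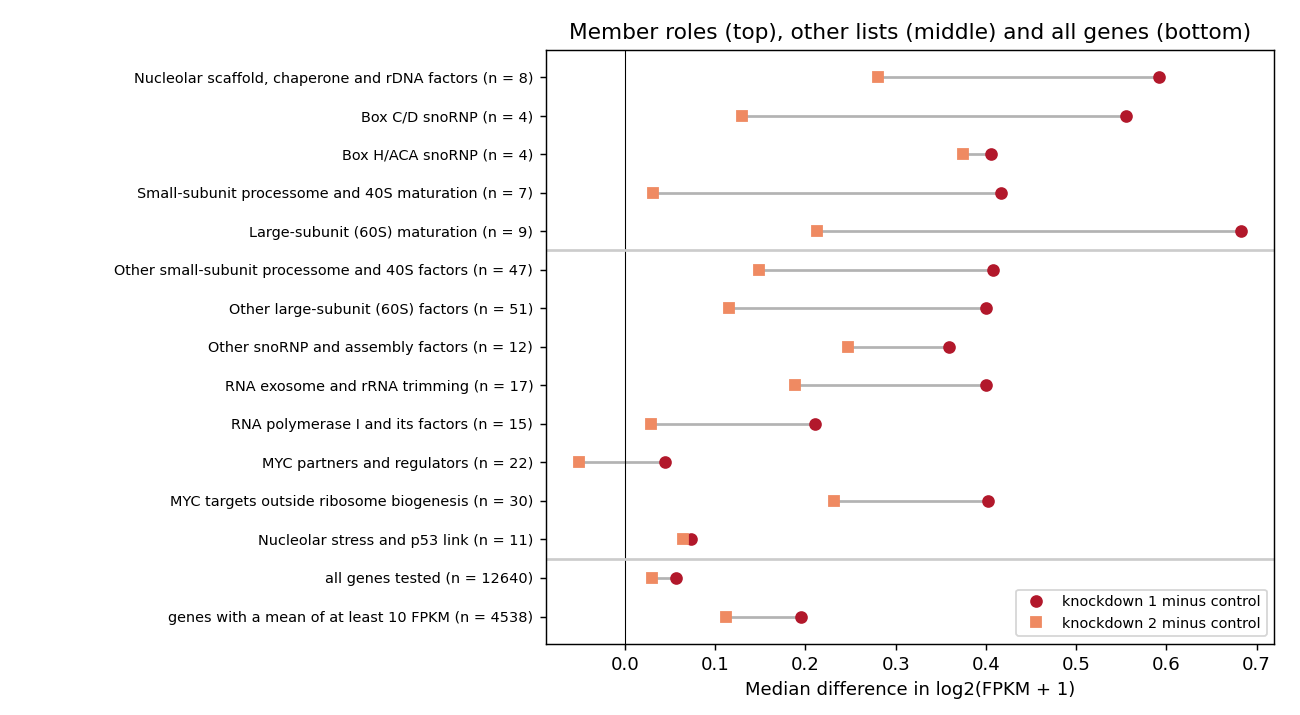
Median difference in log2(FPKM + 1) from the control in knockdown 1 (circles) and knockdown 2 (squares) for the member roles (top), the other lists (middle) and the background (bottom), with the number of genes tested in brackets. The box H/ACA pair of symbols is close together near 0.4, while the 60S members span 0.21 to 0.68.

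MYC's partners and regulators gave counts nearer to those of all genes, and its targets outside ribosome biogenesis gave counts nearer to those of the members. Of 22 partners and regulators tested, 7 were higher in both knockdown libraries (31.8%) and 6 lower, with medians of 0.04 and −0.05. MAX had 8.59 and 10.5 FPKM in knockdown 1 and 2 and 8.81 FPKM in the control. MLXIPL, a glucose-responsive relative of the network that pairs with MLX, had 1.49 and 4.47 FPKM against 9.32 FPKM. It fell by limma-voom (adjusted p = 1.65e-04), where 0.775% of all genes passed as lower, but not by limma (adjusted p = 0.469). MYCL had 1.60 and 2.64 FPKM against 4.04 FPKM (limma adjusted p = 0.524). MYCN had 0 reads in each library. Of 30 targets outside ribosome biogenesis, 26 exceeded the control in both libraries (86.7%) and 1 was below it in both, at medians of 0.40 and 0.23. Among all genes tested 42.5% were higher in both and 30.8% lower, and among those averaging 10 FPKM or more 61.1% were higher. These targets are well expressed (median 65.9 FPKM), and the part of level in their counts was not tested. By limma 0 passed. LDHA and TFRC rose by limma-voom (adjusted p = 0.0266 and 0.0299), where 0.348% of all genes passed as higher. TFRC, the transferrin receptor, had 95.7 and 72.0 FPKM against 49.5 FPKM, RANBP1 195 and 175 FPKM against 121 FPKM, and C1QBP 137 and 125.4 FPKM against 84.5 FPKM.

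Genes that link nucleolar stress to p53 had small median differences, 0.07 in knockdown 1 and 0.06 in knockdown 2. Of 11 tested, 7 were higher in both knockdown libraries and 3 lower. The 7 are 63.6%, against 42.5% of all genes and 61.1% of those averaging 10 FPKM or more. CDKN1A, the p53-induced inhibitor of cyclin-dependent kinases, had 9.31 and 8.69 FPKM in knockdown 1 and 2 against 12.9 FPKM in the control (limma adjusted p = 0.526), and GADD45A had 165 and 147 FPKM against 121 FPKM. RPL5 and RPL11, ribosomal proteins that bind MDM2, had fitted log2 fold changes of 0.06 and 0.18, and CDKN2A had 0 reads in each library. By limma and limma-voom 0 of the list passed.

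Of the 33 members tested, the 15 with a canonical E-box had a median fitted log2 fold change of 0.39 and the 11 whose windows lack one 0.38; the other 7, with no window in the table, had 0.42. Members among themselves showed little relation to exon length (Spearman rho −0.08 with the fitted log2 fold change, 33 genes of the same 3 libraries), where all genes tested gave −0.07. With mean level, rho among the members was 0.29 for the fitted value, 0.03 for the difference in knockdown 1 and 0.45 for that in knockdown 2, where all genes tested gave 0.34, 0.34 and 0.28.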

How the data were processed

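Total RNA of 3 libraries was sequenced (2 TRAF7 knockdown, 1 control). The authors deposited FPKM values, 1 per gene and library, per the file headers; per the submitters' processing notes BWA, Bowtie and hg19 were named, with no role or version, and what counted the reads was not given in the sources used here. All 58735 identifiers matched GENCODE release 29 (GRCh38), and FPKM times that release's exon length was a whole multiple of 1 step for 100% of values above 0 (within 0.05), so reads were recovered; coordinates are from release 29. The step implies that reads were divided by the geometric mean of the library totals times a median-of-ratios factor. This factor was 0.963, 1.01 and 1.04 for knockdown 1, knockdown 2 and control. Test: limma 3.58.1 in R 4.3.3 with trend on log2(FPKM + 1), mean of at least 1 FPKM, Benjamini-Hochberg over 12640 genes, 1 residual degree of freedom; fold changes on this scale understate changes of low genes. Alternatives were limma-voom on the recovered reads, other scalings, filters and pseudocounts, and leaving out each knockdown library. The code was tested on simulated data. Intervals are exact 95% Poisson, floors 3 reads, both counting error only. Full values were given for MYC, up to 4 members of each role with the lowest p and members lower in both libraries; other lists name up to 3 genes with the lowest p, and further genes were chosen after their values were seen. Members and lists were chosen with earlier results of these data known. Python 3.11.15 (scipy 1.17.1) was used for intervals and promoter searches.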

Additional observations from a re-analysis of the deposited data

How the results depend on the processing

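Of 11 alternatives to the fit (other scalings, filters and pseudocounts, no trend, coding genes only, limma-voom), 28 of 33 members kept their direction in all. The count of all genes called was 3 with a mean of at least 5 FPKM, 13 among protein-coding genes, 142 by limma-voom and 0 otherwise; limma-voom called 1 member, 1 MYC partner and 2 MYC targets. The members' median fitted log2 fold change ranged from 0.20 (quantile normalization) to 0.41, and MYC's from 0.01 to 0.19. Quantile normalization left 3 members lower in both libraries and turned DDX21 (−0.033), DKC1 (−0.13), UTP4 (−0.0093), NOP14 (−0.088) and PPAN (0.0298); it gave 16 MYC targets higher in both (median 0.16), 4 nucleolar stress genes (median −0.034) and a snoRNP factor median of 0.21. Scaling to all assigned reads turned NOP14 (−0.018) and the median of all genes (−0.048), and gave 3 RNA polymerase I factors, 2 MYC partners (median −0.073) and 4 nucleolar stress genes (median −0.023) higher in both, with a snoRNP factor median of 0.21. A pseudocount of 5 turned PPAN (0.0032) and gave a snoRNP factor median of 0.21. The nucleolar stress median was 0.18 with a mean of at least 5 FPKM, 0.076 with a pseudocount of 0.1 and 0.078 by limma-voom. The cause was not tested.

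Without knockdown 1 or without knockdown 2 no residual degree of freedom remains, so these are values with no test. Members lower in the remaining library numbered 1 to 6, RNA polymerase I factors higher in it 11 in either case, and MYC partners 10 to 13. Medians ranged from 0.19 to 0.40 for exosome genes, −0.051 to 0.044 for MYC partners and 0.064 to 0.074 for nucleolar stress genes. Fitted values ranged from −0.10 to 0.55 for MYBBP1A, −0.0044 to 0.23 for DKC1, −0.087 to 0.26 for NOP14, −0.065 to 0.42 for WDR43 and −0.28 to 0.27 for PPAN. No paired analysis was possible because the control is 1 library, so the groups share fewer than 2 replicate numbers. With 1 control library its spread cannot be measured, and counting intervals leave out the spread between cultures.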
